A study of Mus musculus with 8 samples.

Results

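The keratin family of mouse back skin was described here across 53 protein-coding genes, chosen by a symbol of the form Krt followed directly by a number, out of 49671 genes in the count table. Keratin-associated protein genes and pseudogenes were not counted as members. The series compared whole back skin, shaved, from mice aged 8 weeks whose Flg genotype is labelled ko/ko (knockout, 4 libraries) with skin labelled wt/wt (wild type, 4 libraries), to ask how a lack of filaggrin changes gene expression in the tissue. The sources used here do not give strain, the make of the Flg allele or whether animals were pooled. Library totals ran from 18483242 to 38545957 counts. Every value averages epidermis, follicles, dermis, fat and muscle, so fewer cells of a type and less RNA per cell cannot be told apart. Flg itself, the check of the labels, lay between 48.0 and 67.6 CPM (counts scaled to the total of each library) in wild type and between 22.3 and 26.6 CPM in knockout, with an edgeR adjusted p of 0.00326.

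Keratins are the intermediate filament proteins of epithelial cells. Each filament is built from pairs of a type I (acidic) and a type II (basic) keratin, and in the mouse the type I genes lie together on chromosome 11 and the type II genes, with the type I gene Krt18, on chromosome 15. Dividing basal cells of the epidermis use Krt5 with Krt14, and cells that leave the basal layer switch to Krt1 with Krt10. The hair follicle has its own sets: inner root sheath keratins, which mould the growing hair, and hair shaft keratins, which fill the hair itself and are made while a follicle is growing. Filaggrin, the product of Flg, aggregates keratin filaments in the outermost cells of the epidermis, which makes the keratins its direct structural partners.

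By level, the keratins of this tissue were mostly epidermal ones. The level of genes was compared per length, as TPM (counts per kilobase of exon, scaled to the same sum in every library). Krt10 was highest at 5124 ± 461 TPM (SD over all 8 libraries), followed by Krt15 at 4455 ± 775, Krt5 at 3550 ± 341, Krt77 at 3439 ± 365 and Krt14 at 1992 ± 249 TPM. Krt10 and Krt15 were within their combined spread of each other, as were Krt5 and Krt77. These 5 genes made up 79.8% of the summed keratin TPM. Basal keratins held 43.0% of that sum, suprabasal keratins 48.5% and the stress-inducible and companion layer keratins 7.12%. The 7 inner root sheath keratins together held 0.0664% and the 15 hair shaft keratins 0.0619%. In all, 11 keratins had a mean of at least 100 TPM, 19 lay between 1 and 100 TPM and 23 lay under 1 TPM. Keratins tied to other sites were near the bottom: Krt2, typical of ear, tail and sole epidermis in mice, was at 1.22 TPM, Krt9 of the footpad at 0.236 TPM and Krt76 of the palate at 0.186 TPM.

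**Figure D1:**
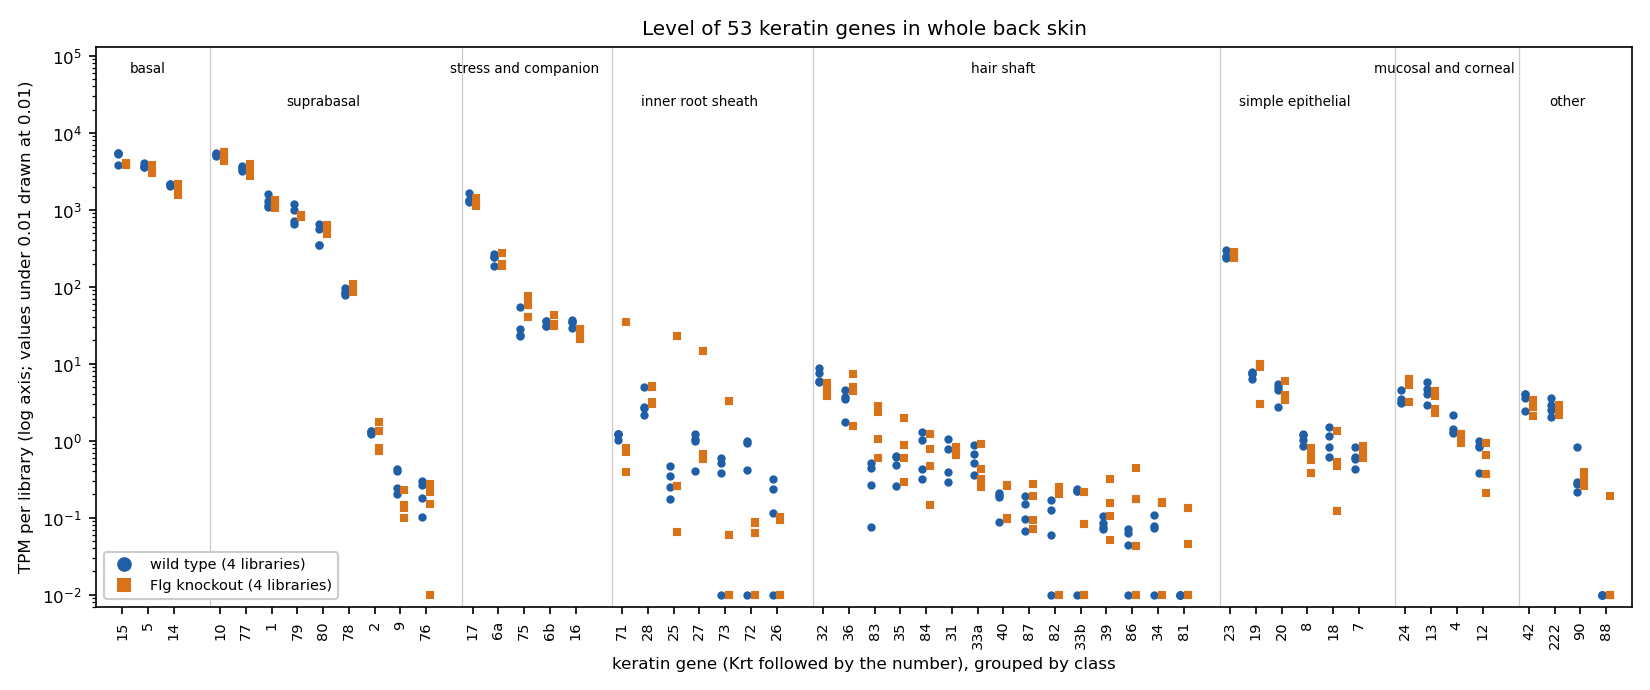
Level of each keratin in TPM (log axis) in each of the 4 wild-type and 4 knockout libraries, with genes grouped by class and ordered by mean level, and values under 0.01 drawn at 0.01. Epidermal keratins such as Krt10 at 5124 TPM lie far above inner root sheath and hair shaft keratins, of which the highest mean is 5.85 TPM (Krt32).

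Of the 53 keratins, 33 had enough reads to be tested, and none passed the edgeR quasi-likelihood test at an adjusted p under 0.05 (adjusted over all 19099 tested genes). The background was 1.41% of all tested genes called, 0.712% higher and 0.702% lower in knockout, so 0 of 33 is not a result about keratins as such. At an unadjusted p under 0.05 there were 5 keratins, 1 higher and 4 lower, against 8.64% higher and 10.9% lower among all tested genes. Among the 33, 21 had a log2 fold change (knockout over wild type) below 0, or 63.6% against 53.3% of all tested genes, and the median was -0.15 against -0.02. The CPM of the genotypes did not overlap, with knockout lower, for 6 of the 33 (Krt4, Krt5, Krt8, Krt15, Krt16 and Krt32), against 6.69% of all tested genes. By TPM, Krt5 and Krt15 did overlap. None of the 33 was higher in knockout without overlap, against 4.61%. By other tools, DESeq2 called 3 keratins (Krt75 and Krt83 higher, Krt16 lower), beside 1142 calls among all 36256 genes it gave a p-value. With library weights, limma voom called 5 (Krt75 higher, and Krt8, Krt15, Krt16 and Krt32 lower), beside 2535 calls among all 19099 tested genes. Scaled to keratinocyte genes instead of by TMM, edgeR called 141 of all genes higher and 34 lower, against 136 and 134, and still 0 keratins. Without wild-type replicate 2, edgeR called Krt75 as higher and Krt15 and Krt16 as lower, beside 504 calls in all. In each fit that called keratins, calls among all genes also rose, from 270 in the main fit. Whether keratins were called more often than other genes in those fits was not tested.

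**Figure D2:**
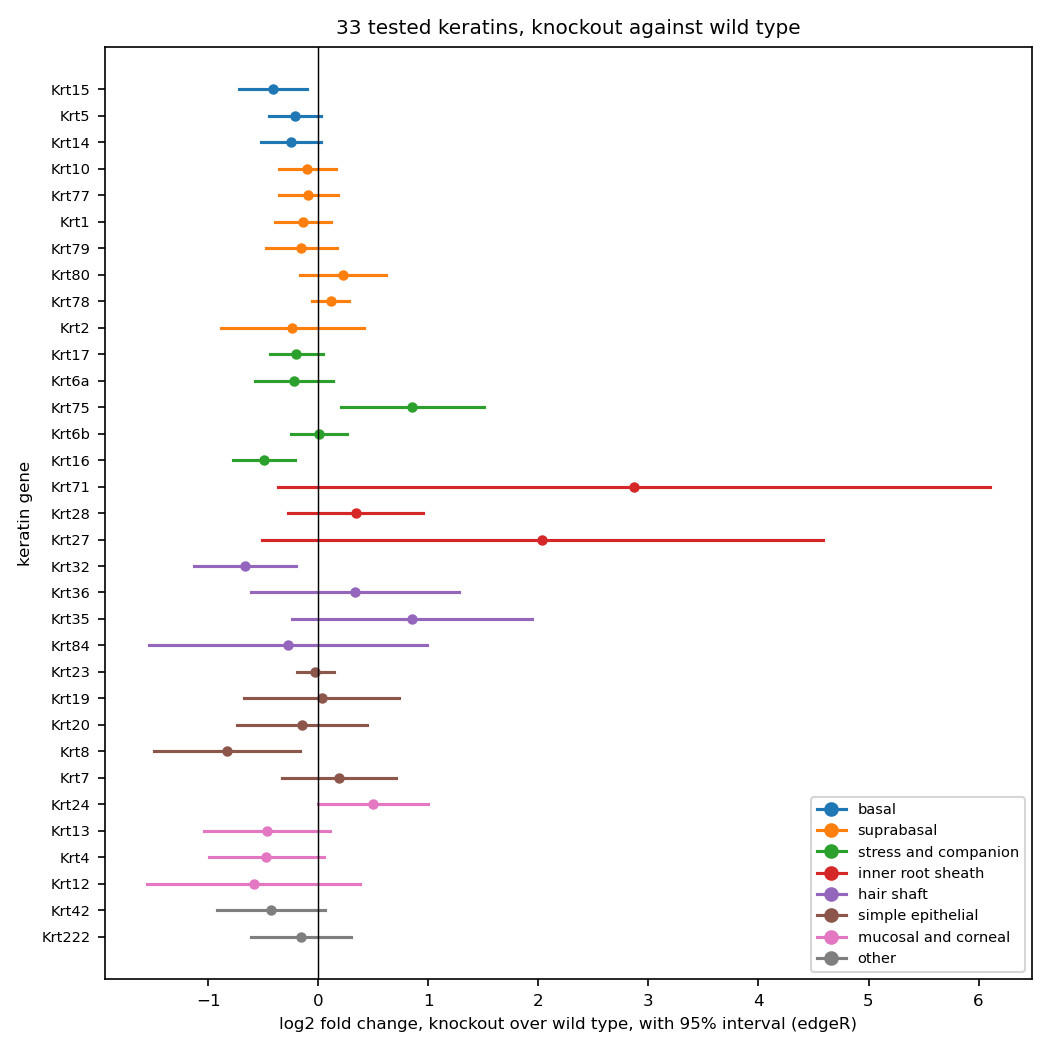
Log2 fold change of the 33 tested keratins, knockout over wild type, with 95% intervals from edgeR, coloured by class. The abundant suprabasal keratins Krt10, Krt77 and Krt1 have narrow intervals that include 0, and that of basal Krt15 lies below 0, from -0.72 to -0.11. Krt71 and Krt27 have the widest, from -0.36 to 6.10 and from -0.51 to 4.59.

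The keratins as a whole took a smaller share of the counts in every knockout library than in any wild-type library. Their summed level was 17255, 16265, 16765 and 16618 CPM in wild-type replicates 1 to 4 and 13928, 15928, 13062 and 15693 CPM in knockout replicates 1 to 4. The means were 16726 ± 411 and 14653 ± 1386 CPM (SD, n = 4 each), and knockout replicates 1 and 3 were the lowest. Per length the sums overlapped, at 23197 to 25995 TPM in wild type and 19641 to 24346 TPM in knockout. The separation therefore holds in CPM only. By class, only the basal keratins separated in CPM, at 6747 ± 551 in wild type and 5414 ± 382 in knockout (SD, n = 4 each). Suprabasal keratins, at 8865 ± 307 and 8224 ± 937 CPM, and all other classes overlapped. Set against the summed counts of 15 other keratinocyte genes (junction, integrin and laminin genes and 2 further epithelial genes), all keratins together overlapped between genotypes. That ratio was between 1.65 and 2.05 in wild type and between 1.505 and 1.83 in knockout. The 15 genes are not a fixed reference: 11 had a log2 fold change below 0, against 53.3% of all tested genes. Their sum ran from 8436 to 9878 CPM in wild type and from 7691 to 9254 CPM in knockout. Of 12 white adipocyte markers 0 were called, against 1.41% of all tested genes. Of the 12, 11 had a log2 fold change above 0, against 46.7% of all tested genes. At an unadjusted p under 0.05 (edgeR), 8 of the 12 were higher in knockout, against 8.64% of all tested genes. Without overlap in CPM 3 were higher, against 4.61%, and the median log2 fold change was 0.78. The markers did not move alike: Lep stood at 2.43 and Retn at 1.61, but Car3 at 0.18, Cd36 at 0.06 and Fabp4 at -0.10. Whether they reflect the amount of fat or its state was not tested. The summed level of the 12 markers, led by Car3 at 2072 to 3871 CPM, overlapped. It was at 4130 to 7558 CPM in wild type and 5677 to 7736 CPM in knockout. With the mean of these markers as a covariate, edgeR called 0 of 33 keratins and 0 of all 19099 genes, so Flg was lost too. The marker mean itself largely followed genotype. Wild-type libraries ran from 6.74 to 8.17 log2 CPM and knockout libraries from 7.84 to 8.50, and only wild-type replicate 3 reached the knockout range. That fit therefore cannot separate fat from genotype, and the part of fat in the keratin share was not tested.

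**Figure D3:**
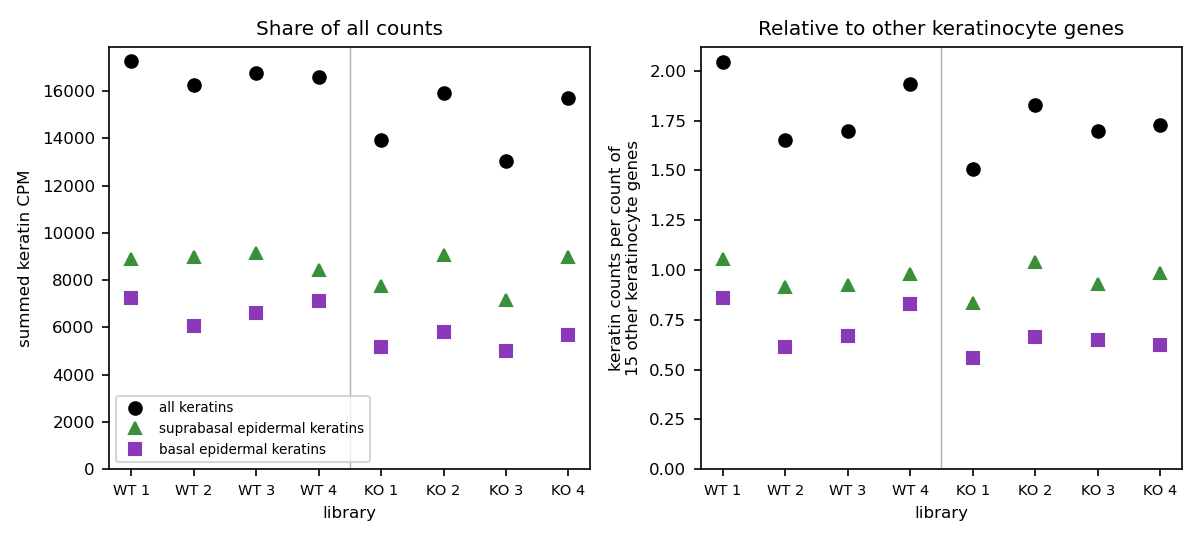
Summed keratin CPM by library (left) and keratin counts per count of 15 other keratinocyte genes (right), for all, suprabasal and basal keratins in the 4 wild-type (WT) and 4 knockout (KO) libraries. On the left all 4 wild-type totals, at 16265 CPM or more, lie above the knockout totals, which reach 15928 CPM, and on the right the genotypes overlap.

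Basal keratins stood lower in knockout without passing the test. Krt15, a type I keratin of basal cells and of the follicle bulge where hair stem cells reside (chromosome 11, positions 100131758 to 100135928, mm10), was at 3226, 2220, 2835 and 3211 CPM in wild type. In knockout it was at 2174, 2152, 2114 and 2094 CPM. In CPM all 4 knockout libraries lay below every wild-type library and within a narrow band (coefficient of variation 1.71%). Wild type spread by 16.4%, with replicate 2 close to the knockout level. Per length that replicate was at 3814 TPM, below the knockout libraries at 3824 to 3989 TPM. The log2 fold change was -0.41 ± 0.14 (SE, 95% interval -0.72 to -0.11, edgeR adjusted p = 0.152). Without wild-type replicate 2 it was -0.53 with an adjusted p of 0.0327, and over all alternatives its adjusted p ranged from 0.0138 to 0.391.

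Krt5, the type II partner in basal cells (chromosome 15, positions 101707070 to 101712891), was at 2737, 2617, 2670 and 2619 CPM in wild type and at 2117, 2452, 2034 and 2476 CPM in knockout. The groups did not overlap in CPM, and here the knockout libraries were the more variable. Per length Krt5 did overlap, with knockout replicate 4 at 3775 TPM and wild-type replicate 4 at 3583 TPM. Its log2 fold change was -0.21 ± 0.11 (SE, edgeR adjusted p = 0.304). Krt14, the type I partner (chromosome 11, positions 100203162 to 100207548), was at 1284, 1200, 1090 and 1280 CPM in wild type and at 890, 1189, 855 and 1110 CPM in knockout. Its groups overlapped, with a log2 fold change of -0.25 ± 0.12 (SE, edgeR adjusted p = 0.296). The ratio of Krt5 to Krt14 per length did not separate the genotypes, at 1.77 ± 0.14 in wild type and 1.82 ± 0.12 in knockout (SD, n = 4 each).

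Each suprabasal keratin overlapped between genotypes in CPM. Of the 9 members, 7 were tested, 2 with a fold change above 0 and 5 below, with a median of -0.10. Krt10 (chromosome 11, positions 99385254 to 99389364) was at 3738, 3528, 3493 and 3532 CPM in wild type and at 3059, 3671, 2847 and 3591 CPM in knockout. Knockout replicates 2 and 4 were inside the wild-type range and replicates 1 and 3 below it. The log2 fold change was -0.10 ± 0.12 (SE, 95% interval -0.36 to 0.16, adjusted p = 0.663).

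Krt1, the type II partner of Krt10 (chromosome 15, positions 101845428 to 101850786), was at 901, 1034, 1175 and 945 CPM in wild type and at 786, 999, 872 and 985 CPM in knockout (log2 fold change -0.14 ± 0.12 SE, adjusted p = 0.543). Krt77, a type II keratin related to Krt1 and its neighbour on chromosome 15 (positions 101858732 to 101869705), was at 3504, 3310, 3270 and 3156 CPM in wild type and at 2882, 3414, 2552 and 3446 CPM in knockout (-0.09 ± 0.12 SE, adjusted p = 0.717). Both overlapped between genotypes. In Krt1, Krt5, Krt10, Krt14 and Krt77 alike, knockout replicates 1 and 3 were below knockout replicates 2 and 4.

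The balance of suprabasal to basal keratin overlapped between genotypes. Suprabasal keratins held 46.9 ± 2.33% of the keratin TPM in wild type and 50.1 ± 1.12% in knockout (SD, n = 4 each). Basal keratins held 44.7 ± 2.93% and 41.2 ± 0.956%. Each share overlapped. The ratio of Krt10 to Krt14 per length in wild-type replicates was 2.42, 2.45, 2.67 and 2.29, and in knockout replicates 2.86, 2.57, 2.77 and 2.69. It stood somewhat higher in knockout, with wild-type replicate 3 inside the knockout range. The ratio of Krt1 to Krt5 was 0.342 ± 0.043 in wild type and 0.359 ± 0.021 in knockout (SD, n = 4 each), and that of Krt1 to Krt10 was 0.246 ± 0.035 and 0.240 ± 0.018. Both overlapped.

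The remaining suprabasal members overlapped as well. Krt79, of the follicle opening and its duct, had a log2 fold change of -0.15 ± 0.15 (SE), and Krt80, of late-differentiating cells, of 0.22 ± 0.17. Krt78, the suprabasal member with the smallest p, was at 96.0, 96.0, 102 and 88.7 CPM in wild type and at 101, 106, 91.1 and 111 CPM in knockout. Its log2 fold change was 0.11 ± 0.08 (SE, edgeR adjusted p = 0.439). Krt9 and Krt76 had too few reads to be tested.

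**Figure D4:**
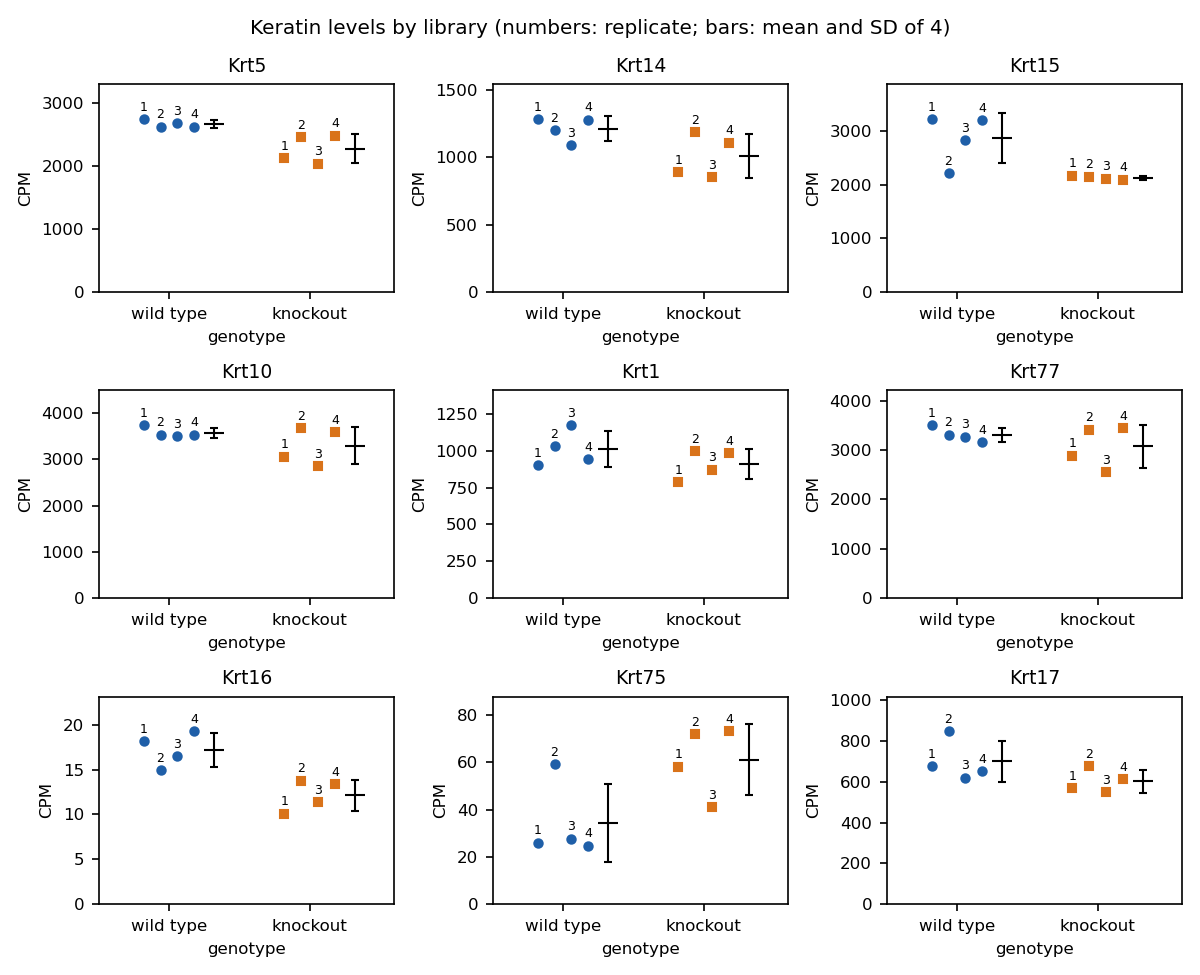
CPM of 9 keratins in each library, with the replicate number beside each point and the mean and SD of 4 libraries beside each group. In CPM, Krt5, Krt15 and Krt16 do not overlap between genotypes, while Krt1, Krt10, Krt14, Krt17 and Krt77 do. Krt75 is high in wild-type replicate 2 as well as in knockout.

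Stress-inducible and companion layer keratins did not move as 1 group. Krt6a, Krt6b and Krt16 are switched on in wounded or inflamed epidermis and are present at rest in follicles, with Krt17, and Krt75 marks the companion layer between inner and outer root sheath. Krt16 had the smallest p of all keratins (chromosome 11, positions 100246091 to 100248902). It was at 18.1, 14.9, 16.5 and 19.3 CPM in wild type and at 10.1, 13.7, 11.3 and 13.4 CPM in knockout, lower in all 4 knockout libraries. The log2 fold change was -0.49 ± 0.13 (SE, 95% interval -0.78 to -0.21), with an edgeR adjusted p of 0.0841 that ranged from 0.0187 to 0.360 over the alternatives. By DESeq2 its adjusted p was 0.0221.

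Krt75 (chromosome 15, positions 101563345 to 101573904) stood in the opposite direction. It was at 25.9, 59.2, 27.6 and 24.8 CPM in wild type and at 58.1, 71.9, 41.1 and 73.2 CPM in knockout. Wild-type replicate 2 lay among the knockout libraries and the other 3 wild-type libraries below all of them. The log2 fold change was 0.85 ± 0.29 (SE, 95% interval 0.20 to 1.504, adjusted p = 0.161). Without wild-type replicate 2 it was 1.23 with an adjusted p of 0.00900, and over all alternatives the adjusted p ranged up to 0.398.

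Krt17 was at 678, 849, 621 and 654 CPM in wild type and at 569, 679, 549 and 613 CPM in knockout (log2 fold change -0.20 ± 0.11 SE, adjusted p = 0.344). Krt6a was at 186, 140, 165 and 198 CPM in wild type and at 192, 130, 139 and 124 CPM in knockout (-0.22 ± 0.16 SE, adjusted p = 0.475). Krt6b had a log2 fold change of 0.00 ± 0.11 (SE, edgeR adjusted p = 0.988), with 24.3 ± 1.54 CPM in wild type and 24.0 ± 3.74 CPM in knockout (SD, n = 4 each). All 3 overlapped between genotypes. Krt6a and Krt6b are near-copies: 45.7% and 50.1% of their distinct 50-base stretches of transcript also occur in another gene, including each other. For Krt16 the share was 37.6% (with Gm11597, Krt14 and Krt17), for Krt14 it was 13.9%, for Krt5 8.52% and for Krt75 0%. How reads that match several genes were counted is not stated in the sources, so the division between such copies is uncertain.

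Of the 7 inner root sheath keratins, 4 separated 1 library from the other 7. Krt71, the main type II keratin of the sheath (chromosome 15, positions 101733950 to 101743109), was at 0.905, 0.735, 0.798 and 0.894 CPM in wild type and at 0.545, 0.271, 0.486 and 23.0 CPM in knockout. Knockout replicate 4, with 614 reads, was 25.4 times as high as the next library. Krt25, a type I keratin of the sheath (chromosome 11, positions 99315516 to 99322951), was at 0.117, 0.163, 0.210 and 0.311 CPM in wild type and at 0.156, 0.162, 0.0405 and 13.6 CPM in knockout. It was 43.8 times as high in knockout replicate 4 as in the next library, on 364 reads against 1 to 8 reads elsewhere. Krt27 and Krt73, named after their values were seen, did the same at 10.6 and 4.79 times the next library, on 182 and 56 reads. Among keratins with reads in at least 2 libraries, these 4 were the ones in which a library was more than 3 times as high as the next, in each case knockout replicate 4. Krt88 had its single read in knockout replicate 2, so no fold can be given for it.

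The other sheath keratins did not share this. Krt28 was at 1.43, 1.47, 2.44 and 1.17 CPM in wild type and at 1.48, 1.62, 2.51 and 2.47 CPM in knockout, with knockout replicates 3 and 4 alike (log2 fold change 0.34 ± 0.28 SE, adjusted p = 0.530). Krt72 and Krt26, also named after their values were seen, had 1 and 3 reads in knockout replicate 4. Krt72 was instead highest in wild-type replicates 1 and 4, with 23 and 16 reads, and had between 0 and 6 reads in the other 6 libraries. Krt26 had 10 reads in each of those 2 wild-type libraries and at most 3 in the rest. At this depth a gene with no read in a library could still be at up to 0.0778 to 0.162 CPM there (3 counts of each library's total, counting error only).

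For Krt71 and Krt27 the comparison of genotypes rests on a single library. Krt71 had a log2 fold change of 2.87 ± 1.40 (SE, edgeR adjusted p = 0.308) with all libraries and of -0.86 (adjusted p = 0.276) without knockout replicate 4. Krt27 went from 2.04 to -0.64, and with it the median of the 3 tested members. The log2 fold change of Krt28 stayed between 0.21 and 0.60 with any library left out. Tchh, which encodes trichohyalin, a protein that binds keratin filaments of the inner root sheath, was named after its values were seen. It was at 9.57, 9.76, 13.6 and 7.58 CPM in wild type and at 9.24, 6.71, 8.83 and 26.4 CPM in knockout, so it too was highest in knockout replicate 4, at 1.95 times the next library. The summed anagen (growth phase) matrix markers were at 211 CPM in knockout replicate 4, inside the range of 142 to 302 CPM of the other knockout libraries. Most of that sum comes from the proliferation genes Mki67 and Top2a, both highest in knockout replicate 1. Of the 10 markers 2 were highest in knockout replicate 4, Shh at 0.786 CPM against 0.117 to 0.367 CPM elsewhere and Foxn1 at 9.21 against 6.40 to 9.16 CPM. The part of growing follicles in these values was not tested.

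**Figure D5:**
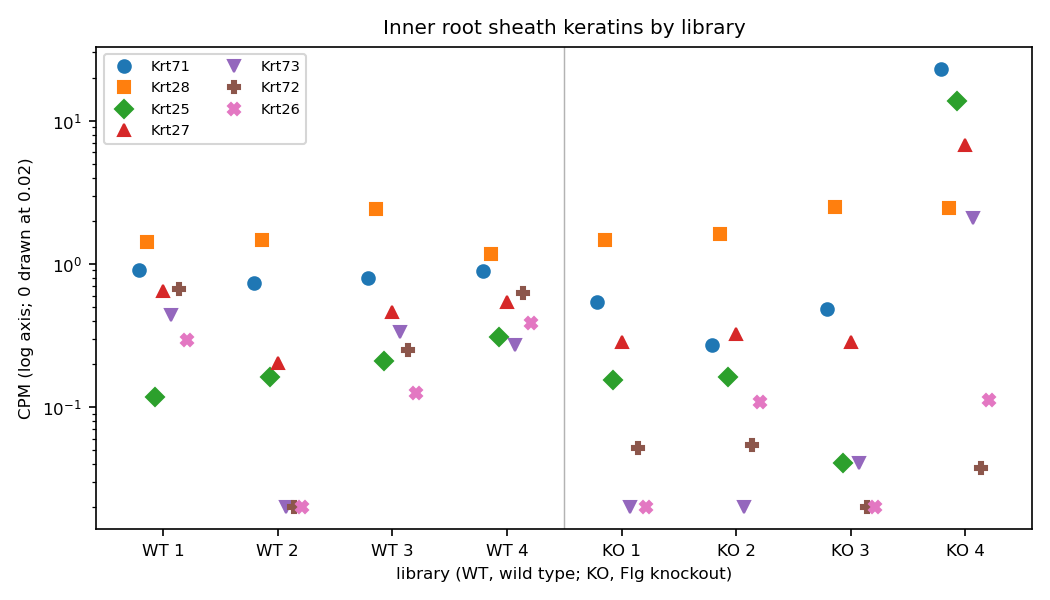
CPM (log axis) of the 7 inner root sheath keratins in each library, with 0 drawn at 0.02 and points shifted sideways for legibility. Krt71, Krt25, Krt27 and Krt73 stand apart in knockout replicate 4, at 23.0, 13.6, 6.81 and 2.10 CPM, while Krt28, Krt72 and Krt26 do not.

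Because their levels stood apart, 4 sheath keratins were picked to show the sequences before their start sites. With them is that of Krt72, a sheath keratin that did not stand apart. Each is the 250 bases upstream of a RefSeq start (GRCm38.p6, the assembly of mm10; all 5 on the minus strand), written 5′ to 3′ with matches to TATAAA (the TATA box) and AGATAA (a core bound by GATA factors) on either strand in capitals. The regions are chr15:101743098-101743347 for Krt71, chr15:101802361-101802610 for Krt73, chr11:99322952-99323201 for Krt25, chr11:99351119-99351368 for Krt27 and chr15:101786521-101786770 for Krt72.
Krt71: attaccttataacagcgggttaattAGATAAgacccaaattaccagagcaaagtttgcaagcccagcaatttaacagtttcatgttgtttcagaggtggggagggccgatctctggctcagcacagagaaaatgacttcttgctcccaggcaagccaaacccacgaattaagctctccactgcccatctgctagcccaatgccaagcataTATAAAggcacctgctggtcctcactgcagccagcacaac
Krt73: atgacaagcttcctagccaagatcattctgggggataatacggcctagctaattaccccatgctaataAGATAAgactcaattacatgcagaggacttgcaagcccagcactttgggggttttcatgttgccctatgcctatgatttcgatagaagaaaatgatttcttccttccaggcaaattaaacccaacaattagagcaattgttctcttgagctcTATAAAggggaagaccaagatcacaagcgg
Krt25: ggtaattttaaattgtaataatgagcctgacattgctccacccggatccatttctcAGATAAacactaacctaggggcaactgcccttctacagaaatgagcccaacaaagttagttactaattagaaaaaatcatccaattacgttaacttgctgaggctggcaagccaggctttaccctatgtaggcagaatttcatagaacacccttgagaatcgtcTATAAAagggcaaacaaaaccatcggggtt
Krt27: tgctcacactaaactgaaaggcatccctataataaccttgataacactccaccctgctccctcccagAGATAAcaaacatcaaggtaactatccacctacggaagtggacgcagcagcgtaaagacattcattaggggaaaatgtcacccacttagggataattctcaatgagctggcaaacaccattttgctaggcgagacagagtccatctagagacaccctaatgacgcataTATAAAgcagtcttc
Krt72: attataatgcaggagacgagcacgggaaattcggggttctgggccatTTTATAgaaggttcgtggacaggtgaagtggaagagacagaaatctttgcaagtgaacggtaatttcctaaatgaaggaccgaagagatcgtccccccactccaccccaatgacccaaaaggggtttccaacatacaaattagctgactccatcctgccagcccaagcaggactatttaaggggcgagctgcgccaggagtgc

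The AGATAA match began 225, 182, 194 and 183 bases before the start in Krt71, Krt73, Krt25 and Krt27, and the TATAAA match 40, 30, 30 and 15 bases before it. In Krt72 the letters AGATAA were not in this window, and the TATAAA match lay on the other strand, 203 bases before the start. A promoter was matched for 36 of the 53 keratins. AGATAA was present in 4 of the 7 sheath keratin promoters, namely the 4 genes that stood apart. It was also in 3 of 7 suprabasal, 2 of 5 simple epithelial and none of 9 hair shaft promoters. In all it was in 9 of 36 keratin promoters (25.0%) and in 9.99% of all 32851 mouse promoters of the same length. TATAAA was present in all 7 sheath promoters, in 6 of 9 hair shaft promoters, in 2 of 7 suprabasal ones and in neither of the 2 basal ones, against 12.4% of all promoters. CTTTGA, a core bound by LEF and TCF factors, was in 5 of 9 hair shaft promoters and in 1 of 7 sheath promoters, against 13.8% of all. The letters searched and the genes shown were chosen after the values were seen, so the split within the sheath is not a test. Both strands were read, and a match describes sequence and not binding. Gata3, which encodes a GATA factor of the sheath, was at 283, 193, 183 and 258 CPM in wild type and at 189, 213, 216 and 221 CPM in knockout, with knockout replicate 4 inside the wild-type range.

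Hair shaft keratins were low in both genotypes, led by Krt32 and Krt36, and 4 of 15 had enough reads to be tested. Their summed level was 10.7, 7.39, 6.30 and 8.36 CPM in wild type and 6.87, 9.14, 7.49 and 9.39 CPM in knockout, with full overlap. That sum is carried by Krt32 and Krt36, in which knockout replicate 4 was not the highest. Knockout replicate 4 was the highest library for Krt35, named after its values were seen, at 1.42 CPM (38 reads against 4 to 25 elsewhere), or 2.19 times the next. It was also the highest for Krt86 and Krt81, on 7 and 2 reads, at 2.42 and 2.88 times the next. Krt32, a type I keratin of the hair cuticle (chromosome 11, positions 100080848 to 100088226), was at 5.14, 3.31, 3.07 and 4.39 CPM in wild type and at 2.96, 2.22, 2.03 and 2.66 CPM in knockout. Every knockout library was below every wild-type library, and the log2 fold change was -0.67 ± 0.21 (SE, edgeR adjusted p = 0.129). Its antisense neighbour Gm11571 held at most 0.379 CPM, which is up to 17.1% of the Krt32 level in a library.

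Krt36 was at 1.93, 2.49, 0.882 and 2.06 CPM in wild type and at 0.804, 3.84, 2.31 and 2.47 CPM in knockout (log2 fold change 0.33 ± 0.43 SE, adjusted p = 0.702). Krt83, a type II hair keratin, had 11, 4, 1 and 7 reads in wild type and 13, 30, 15 and 35 reads in knockout, too few for the edgeR filter. In CPM this was 0.321, 0.163, 0.0420 and 0.272 against 0.337, 1.62, 0.608 and 1.31, with no overlap, and the smallest gap was between wild-type replicate 1 and knockout replicate 1. DESeq2, which kept the gene, gave a log2 fold change of 2.25 and an adjusted p of 0.00959. edgeR without a filter did not call it (2.14 ± 0.54 SE, adjusted p = 0.0676), nor did the other 5 edgeR fits that kept it, with adjusted p up to 0.157. Of its 50-base stretches 22.1% also occur in another gene (Krt86, Krt81 and Krt87), so its reads are uncertain. Keratin-associated protein genes, whose products fill the space between filaments in the hair, were nearly silent: of 56 genes 1 exceeded 1 CPM in any library and 17 had no read at all. That gene, Krtap3-2, had a log2 fold change of -0.18 ± 0.26 (SE, edgeR adjusted p = 0.729).

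Among keratins of simple epithelia, Krt23 dominated and did not separate the genotypes. It was at 129, 128, 142 and 125 CPM in wild type and at 131, 136, 117 and 123 CPM in knockout. Its log2 fold change of -0.03 ± 0.08 (SE, 95% interval -0.19 to 0.14, adjusted p = 0.874) is among the most precise of all members. Krt8 and Krt18, the classic pair of simple epithelia, which Merkel cells also make, were both rare. Krt8 had 25, 15, 11 and 19 reads in wild type and 17, 4, 10 and 8 in knockout, or 0.636 ± 0.129 against 0.340 ± 0.102 CPM (SD, n = 4 each), with no overlap in CPM. Its log2 fold change was -0.83 ± 0.30 (SE, edgeR adjusted p = 0.174), and 26.9% of its 50-base stretches also occur in the pseudogene Krt8-ps. Krt18 was not tested.

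The 7 Merkel cell markers summed to 20.5 to 21.6 CPM in wild type and to 17.6 to 18.8 CPM in knockout, while Atoh1, which defines these cells, was between 0 and 0.0420 CPM in wild type and between 0.0259 and 0.0810 CPM in knockout. Their part in the Krt8 values was not tested. Krt20, another Merkel cell keratin, did not follow: it was at 3.56, 1.71, 2.69 and 3.23 CPM in wild type and at 2.02, 2.22, 3.56 and 2.25 CPM in knockout (log2 fold change -0.15 ± 0.27 SE, adjusted p = 0.794). Krt19, of the outer root sheath and bulge, was at 4.79, 4.78, 3.61 and 4.55 CPM in wild type and at 1.71, 5.63, 5.79 and 5.01 CPM in knockout. Knockout replicate 1 was low and the other 3 were above all wild-type libraries (0.03 ± 0.32 SE, adjusted p = 0.968).

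Keratins of mucosa and cornea were present at low levels. Krt24 was at 2.13, 2.74, 1.72 and 1.98 CPM in wild type and at 3.45, 3.68, 1.86 and 2.96 CPM in knockout, with a log2 fold change of 0.50 ± 0.23 (SE, edgeR adjusted p = 0.259). Krt13, of oral and oesophageal epithelium, was at 2.86, 1.76, 3.19 and 2.45 CPM in wild type and at 2.13, 2.54, 1.30 and 1.42 CPM in knockout (-0.47 ± 0.26 SE, adjusted p = 0.351). Krt4, its type II partner, was at 1.02, 0.898, 1.39 and 0.894 CPM in wild type and at 0.804, 0.757, 0.810 and 0.599 CPM in knockout, without overlap (-0.47 ± 0.24 SE, adjusted p = 0.303). Krt12, the corneal keratin, lies over the antisense gene A830036E02Rik, which reached 10.9 CPM against 0.458 ± 0.162 CPM for Krt12 in wild type (SD, n = 4). Without a known strand setting their reads cannot be told apart.

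Of the 4 keratins outside these classes, Krt42 had a log2 fold change of -0.43 ± 0.22 (SE, edgeR adjusted p = 0.316) with 2.01 ± 0.428 CPM in wild type and 1.48 ± 0.286 CPM in knockout (SD, n = 4 each). Krt222 was at 2.22, 3.84, 2.52 and 3.15 CPM in wild type and at 2.67, 2.60, 2.96 and 2.10 CPM in knockout (-0.16 ± 0.21 SE, adjusted p = 0.707). Krt90, not tested, was at 0.233, 0.245, 0.168 and 0.700 CPM in wild type and at 0.233, 0.271, 0.203 and 0.299 CPM in knockout, with wild-type replicate 4 the highest. Krt88, also not tested, had 1 read in all, in knockout replicate 2 (0.0541 CPM).

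Among partners of keratin filaments, 1 gene was called besides Flg, whose fall the genotype fixes. Of the other 12 tested genes that bundle or cross-link filaments 0 rose and 1 fell, against 0.712% and 0.702% of all genes, with a median log2 fold change of -0.0421. The gene was Tgm5, a transglutaminase of the cornified envelope, which fell from 51.5, 56.4, 51.1 and 52.3 CPM in wild type to 32.1, 33.7, 37.3 and 37.4 CPM in knockout (log2 fold change -0.57 ± 0.08 SE, adjusted p = 0.0154). Of the 19 tested genes that anchor keratin at desmosomes and hemidesmosomes, 0 were called, 10 lay above 0 and 9 below, with a median of 0.02. The 2 with the smallest p were lower in every knockout library without passing: Pkp3, a desmosomal plaque gene, at -0.29 ± 0.08 (SE, edgeR adjusted p = 0.0920), and Perp, a desmosomal membrane gene, at -0.36 ± 0.10 (SE, edgeR adjusted p = 0.103).

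Regulators of keratin genes gave no call either, against 1.41% of all tested genes, which is not a result about regulators as such. At an unadjusted p under 0.05 (edgeR), 3 of the 12 epidermal regulators were lower and 0 higher. Of the 11 tested hair regulators 2 were lower and 0 higher. Among all tested genes 10.9% were lower and 8.64% higher. Of 12 regulators of epidermal keratins 6 lay above 0 and 6 below, with a median of -0.00194. Tfap2a, which encodes AP-2 alpha, a factor of the basal keratin promoters, stood at -0.30 ± 0.10 (SE, edgeR adjusted p = 0.141), and the Notch effector gene Rbpj at -0.22 ± 0.09 (SE, edgeR adjusted p = 0.216). Of 11 tested regulators of hair keratins 3 lay above 0 and 8 below, with a median of -0.09. Msx2, a homeobox gene of the hair matrix, was at 5.90, 2.33, 4.53 and 5.44 CPM in wild type and at 2.85, 3.62, 2.19 and 2.62 CPM in knockout (-0.69 ± 0.28 SE, adjusted p = 0.209), and Msx1 stood at -0.60 ± 0.24 (SE, edgeR adjusted p = 0.216). Hoxc13, a homeobox gene that directs hair keratin genes, was named after its values were seen. It was at 20.8, 9.63, 9.99 and 19.3 CPM in wild type and at 11.5, 11.5, 8.51 and 12.5 CPM in knockout, highest in wild-type replicates 1 and 4.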

How the data were processed

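RNA of whole back skin was measured in 4 wild-type and 4 knockout samples, grouped by the genotype label. The labels do not say that each is a separate mouse, so p-values measure the spread between samples. Replicates were numbered in sample order and pair nothing. The closest replicates, knockout 2 and 4, had a chi-square of 5.94 per degree of freedom, so none agreed within counting noise.

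The authors deposited raw read counts per gene, made with GSNAP on mm10 and featureCounts 1.6.2, per the submitters' processing notes. The strand setting is not given in the sources used here, and the labels name both a SMART and a directional kit. Gene length in bases, a value of another kind, is as the authors deposited it, per the file headers. The 92 spike-in rows were left out. Symbols came from the GENCODE M21 annotation (49326 of 49671 genes). Of the keratins, 34 of 53 had the same span there.

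CPM and TPM were computed from the counts. edgeR 4.0.16 (R 4.3.3) with filterByExpr, TMM and the robust quasi-likelihood test was fitted with the 8 libraries and a single term for genotype, adjusted by the Benjamini-Hochberg method. Standard errors and 95% intervals were derived from its p-values. On simulated counts of 18869 genes it recovered 46.3%, 85.1% and 97.0% of genes changed 1.5-fold, 2-fold and 4-fold, and 7.32% of its calls were false. Changes were placed only in genes with a mean above 1 CPM, and the libraries were drawn without differences in quality. The shares recovered therefore do not cover rarer tested keratins such as Krt8. Alternatives were other scalings, DESeq2 1.42.0, limma 3.58.1 voom, other filters, an adipocyte covariate and each library left out. Counts without molecular identifiers give counting error only.

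The members and all gene lists were chosen with earlier results of these data known. Values in every library are given for the 3 most abundant keratins of each class, the keratin of each class with the smallest p and any called one. Of partner lists, called members and the 2 with the smallest p are named. All other genes named were chosen after their values were seen.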

Additional observations from a re-analysis of the deposited data

Results flagged for a closer look

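In 72 groups of 4 libraries examined (keratins that were tested or named, in each genotype), 8 had a library far from the other 3. Chance gives about 1 such group in 20. Knockout replicate 4 was high for Krt71 (23.0 CPM, against 0.271 to 0.545 in the other knockout libraries), Krt25 (13.6 CPM, against 0.0405 to 0.162) and Krt27 (6.81 CPM, against 0.284 to 0.325). Krt75 was high in wild-type replicate 2 (59.2 CPM, against 24.8 to 27.6). Krt90 was high in wild-type replicate 4 (0.700 CPM, against 0.168 to 0.245) and Krt10 in wild-type replicate 1 (3738 CPM, against 3493 to 3532). Krt6b was high in knockout replicate 1 (29.6 CPM, against 21.8 to 22.6) and Krt20 in knockout replicate 3 (3.56 CPM, against 2.02 to 2.25).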

How the results depend on the processing

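No paired analysis was possible because the labels carry no replicate numbers. Over 17 alternatives, 383 of 404 log2 fold changes of the 24 named and tested keratins kept their sign and stayed short of the threshold, 10 passed it with the same sign and 11 changed sign. The number of called genes among all tested was 270. It was 175 when scaled to keratinocyte genes (141 higher and 34 lower, against 136 and 134), 1142 with DESeq2, 2535 with limma voom, 502 without a filter, 0 with the adipocyte covariate and between 11 and 1325 with 1 library left out. Without wild-type replicates 1 to 4 in turn it was 63, 504, 1325 and 62, and without knockout replicates 1 to 4 it was 77, 11, 129 and 15. Called keratins numbered 3 with DESeq2, 5 with limma voom, 0 to 3 with 1 library left out and 0 otherwise.

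The median log2 fold change of inner root sheath keratins, 2.04, was 0.35 with DESeq2, 0.33 with a filter of 1 CPM in 4 libraries (which leaves fewer members) and between -0.64 and 2.42 with 1 library left out. That of simple epithelial keratins was between -0.13 and -0.00915 with 1 left out. That of mucosal keratins was 0.0115 with the 1 CPM filter and -0.81 with the adipocyte covariate. Signs changed for Krt78 (-0.0220) and Krt222 (0.23) with the adipocyte covariate, Krt23 (0.0356) scaled to keratinocyte genes and Krt19 (-0.0671) with limma voom. With 1 library left out, Krt71 ranged from -0.86 to 3.26, Krt23 from -0.0524 to 0.0279 and Krt19 from -0.13 to 0.32. The cause was not tested where none is named. Depth limits the 20 keratins that were not tested.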
